A study of Mus musculus with 16 samples.

Results

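The lncRNAs of the myosin heavy chain clusters were read from skeletal muscle RNA of 16 mice. The members were all lncRNA transcripts that overlap the myosin heavy chain cluster of chromosome 11, from Myh3 (start 67078300, GRCm38) to Myh13 (end 67371586), or that of chromosome 14, which holds Myh7 (end 54994626) and most of Myh6, each with flanking sequence. This rule found 23 transcripts among 58245, of which 8 lie on chromosome 11 and 15 on chromosome 14. Of these, 6 carry Ensembl identifiers and 17 carry NONCODE identifiers. The mice were male C57BL/6J, 6 weeks old at the start, in 4 groups of 4: control, HFD (a diet with 60% fat for 8 weeks), HFD + RSV, and HFD + metformin, where the drug was given for 6 weeks after HFD feeding. RSV is resveratrol, a plant polyphenol, and metformin is an antidiabetic drug. The comparisons ask how HFD feeding and each drug change lncRNAs of muscle. Each mouse gave 1 library.

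A muscle fibre is fast or slow mainly by the myosin heavy chain that it makes. Myh4, Myh1, and Myh2 encode the chains of fast fibres, Myh3 and Myh8 those of embryonic and neonatal muscle, and Myh13 that of extraocular muscle. Myh7 encodes the chain of slow fibres and of the heart, and Myh6 that of the heart. The locus of linc-Myh (2310065F04Rik) lies between Myh3 and Myh2, and its region holds an enhancer of the fast genes. The linc-Myh RNA is known in fast fibres, where it is linked to low expression of slow genes. Myhas is transcribed antisense to Myh1 from the side of Myh4, and Mhrt is an antisense RNA of the Myh7 locus known from the heart.

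The counts over both deposited tables were 20281801 to 34021101 per mouse. Genes of skeletal muscle were abundant in every mouse, and the summed level of 6 retina markers was 0.133 to 0.843 CPM (counts scaled to library size), although the labels' extraction text speaks of retinas. Of those 6, 4 were in the mRNA table and none entered the test. Markers of other cells varied between mice and, for some lists, between groups. The summed level of 5 adipocyte markers ranged over 431 to 2110 CPM in control mice, 43.6 to 516 in HFD mice, 84.5 to 672 in HFD + RSV mice, and 24.9 to 2190 in HFD + metformin mice. For 5 Schwann cell markers it was 46.2 to 152, 31.1 to 41.7, 29.4 to 307, and 27.6 to 63.5 CPM in the same order. For 3 erythroid markers it was 232 to 561, 217 to 307, 328 to 860, and 320 to 899 CPM. Against the HFD group, 3 of 3 were higher at an unadjusted P below 0.05 with RSV and with metformin (edgeR, median log2FC 0.97 and 1.16). The shares of all genes at that cut-off, in either direction, were 4.72% and 8.02%, and 0 of the 3 passed at an adjusted P below 0.05. For 3 macrophage markers it was 22.2 to 34.1, 16.1 to 33.4, 13.3 to 35.3, and 12.4 to 43.1 CPM. For 6 cardiac markers, of which 4 were in the table, it was 0.898 to 15.5 CPM over all mice. In HFD against control, 3 of 5 Schwann cell markers were lower at an unadjusted P below 0.05, compared with 12.5% of all genes. In HFD + RSV against HFD, 5 of 5 were higher at that cut-off, compared with 4.72% of all genes in either direction. The median log2FC were -1.34 and 1.25, and 0 passed at an adjusted P below 0.05 (edgeR). No marker in the table was at 0 in all 16 mice, and the part of these markers in the results was not tested. Bulk RNA cannot tell fewer fibres of a type from less RNA per fibre. Control mouse 1 stood apart, with 50 Myh7 counts against 10051 to 28491 in the other control mice, and the Myh4, Myh8, Myhas, and Myh7-locus values, the correlations with Myh4 and Myh7, and the fibre type lists are also given without it. The labels of all HFD mice start with the same number, which no other mouse has and whose meaning is not given, so this number and the diet cannot be told apart.

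Promoter sequences of linc-Myh, Myhas, and Myh4 are shown because the lncRNAs of chromosome 11 described here start in or near them. They run from 250 bases before the RefSeq start to 50 bases after it, on the strand of the gene, in the GRCm38.p6 build. Capitals mark TATAAA, the E-box CANNTG, and the consensus motifs of MEF2 and CArG, all searched on both strands. The linc-Myh window is chr11:67120031-67120330 (minus strand), the Myhas window is chr11:67237232-67237531 (minus strand), and the Myh4 window is chr11:67237562-67237861 (plus strand).
linc-Myh: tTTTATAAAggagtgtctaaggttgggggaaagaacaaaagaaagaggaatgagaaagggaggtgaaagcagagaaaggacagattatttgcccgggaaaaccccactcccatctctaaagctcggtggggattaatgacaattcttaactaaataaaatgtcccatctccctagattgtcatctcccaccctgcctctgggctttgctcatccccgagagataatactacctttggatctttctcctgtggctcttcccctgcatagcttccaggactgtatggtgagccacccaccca
Myhas: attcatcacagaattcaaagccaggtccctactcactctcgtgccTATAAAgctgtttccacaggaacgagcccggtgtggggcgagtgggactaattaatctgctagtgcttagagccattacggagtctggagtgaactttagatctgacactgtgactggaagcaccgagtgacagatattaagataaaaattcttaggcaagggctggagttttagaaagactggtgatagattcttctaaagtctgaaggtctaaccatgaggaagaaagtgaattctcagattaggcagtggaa
Myh4: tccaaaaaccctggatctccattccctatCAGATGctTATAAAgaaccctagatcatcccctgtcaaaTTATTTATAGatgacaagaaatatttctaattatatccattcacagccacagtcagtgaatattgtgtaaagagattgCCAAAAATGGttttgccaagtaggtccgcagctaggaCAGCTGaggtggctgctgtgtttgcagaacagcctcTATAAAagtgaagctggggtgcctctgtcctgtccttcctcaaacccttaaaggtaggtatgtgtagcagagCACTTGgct
The RefSeq start of linc-Myh equals that of the transcript ENSMUST00000125538. Myhas and Myh4 point away from each other, with 531 bases between their RefSeq starts and 30 bases between the windows. The member ENSMUST00000145021 starts 239 bases before the RefSeq start of Myh4 on the opposite strand, so its start lies inside the Myh4 window, at base 12. The Myh4 window holds TATAAA 3 times, 1 of them 31 bases before the start, a MEF2 motif, a CArG motif, and 3 E-boxes. TATAAA is present in 13.6% of all 32851 windows of this length, an E-box in 72.3%, the MEF2 motif in 3.19%, and the CArG motif in 1.63%. The linc-Myh window holds TATAAA 247 and 249 bases before the start, on opposite strands and overlapping, and the Myhas window 205 bases before it. Neither holds an E-box, MEF2, or CArG match.

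The first question was how an HFD changes these lncRNAs. Of the 4 transcripts of the linc-Myh locus, 3 rose by 2.99- to 4.92-fold in the HFD group compared with the control group, and they are the members that passed the test. Of the 23 members, 9 had enough counts for the test, 5 on chromosome 11 and 4 on chromosome 14. At an adjusted P below 0.05 (edgeR quasi-likelihood test over 17599 lncRNAs), 3 of the 9 were higher and 0 were lower, compared with 1.61% of all tested lncRNAs in either direction and 1.13% higher. A member could pass the filter on low counts through the group in which it is high, so the share among tested members is not that among all 23.

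The linc-Myh locus holds 4 members, 10170 bases or more from the end of Myh3 and outside every myosin gene. ENSMUST00000125538 (chr11:67112461-67120080, minus strand, 5 exons, 2724 bases) had 152, 133, 158, and 101 counts in the control mice and 447, 409, 315, and 368 in the HFD mice. Scaled to library size, these were 27.4 to 55.9 CPM and 94.6 to 133 CPM, so every HFD mouse was above every control mouse. The difference was 1.58 on the log2 scale (SE 0.32, adjusted P = 0.0294, edgeR).

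NONMMUT010284.2 (chr11:67112461-67116841) is the most abundant linc-Myh transcript in counts. It had 212, 251, 133, and 161 counts in the control mice and 692, 613, 649, and 543 in the HFD mice. The levels were 54.9 ± 17.9 and 192 ± 11.3 CPM (SD, n = 4), again without overlap, with a log2FC of 1.81 (SE 0.41, adjusted P = 0.0424, edgeR).

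NONMMUT085366.1 (chr11:67112462-67120081) showed the largest log2FC of the tested members of chromosome 11. It had 64, 99, 85, and 62 counts in the control mice and 307, 309, 362, and 404 in the HFD mice. The levels were 21.8 ± 1.31 and 108 ± 23.4 CPM (SD, n = 4), with a log2FC of 2.30 (SE 0.34, adjusted P = 0.0116, edgeR). The smallest P of the exact permutation test of 4 mice against 4, 0.0286, was reached by each of the 3 transcripts. How many of all tested lncRNAs also reached it was not counted, and the 3 rows share fragments.

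The fourth linc-Myh transcript, ENSMUST00000153497, is shorter and starts inside the locus. It had 5 to 15 counts per mouse, 32 in all control mice and 39 in all HFD mice, and was not tested. The rows overlap, and the counting divided fragments among them, so their separate changes are not independent. With the 4 rows summed, an alternative added after seeing the data, the locus had 99.8 to 160 CPM in the control group and 390 to 461 CPM in the HFD group. The log2FC was 1.83 (SE 0.35, adjusted P = 0.0224, edgeR). Leaving out 1 mouse at a time kept the 3 log2FC within 1.43 to 1.79, 1.64 to 2.02, and 2.14 to 2.38. The adjusted P of the first and second transcripts rose to 0.0578 to 0.0986 and 0.0824 to 0.128 without any single one of control mice 2, 3, and 4 or of the HFD mice. That of the third was 0.063 without control mouse 2 and at most 0.0448 without any other mouse.

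**Figure D1:**
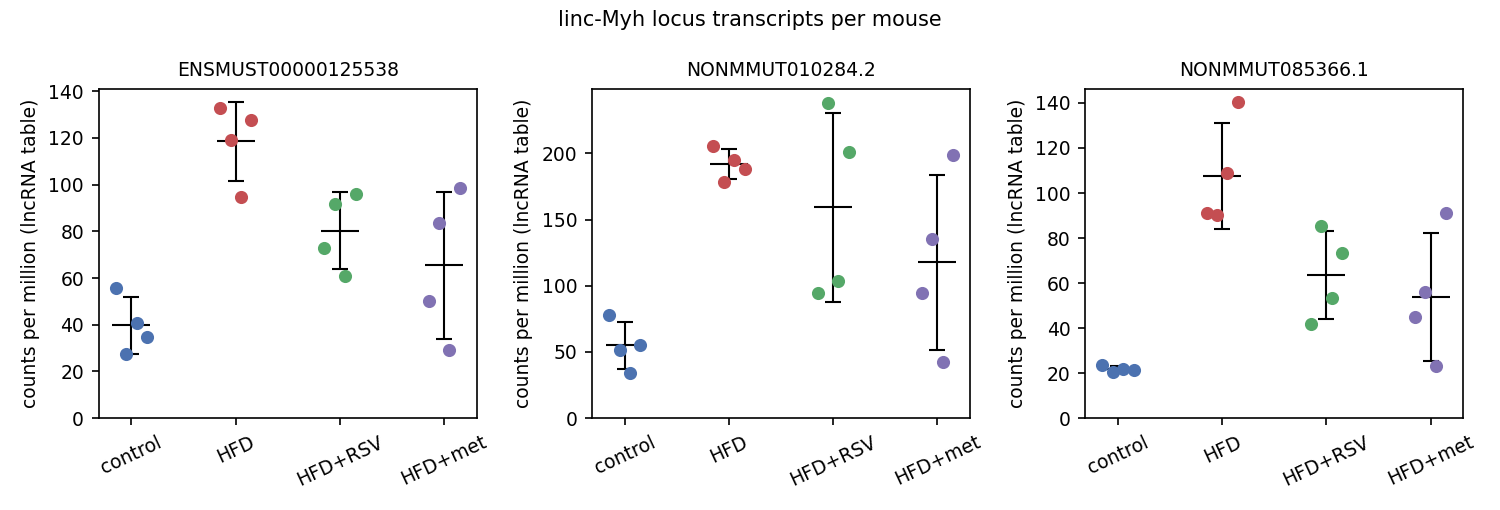
CPM of the 3 tested linc-Myh transcripts (y axis) in the 4 groups (x axis), 1 point per mouse, with the mean and SD of 4 mice as bars. All HFD points lie above all control points, while the HFD + metformin points spread from the control range to the HFD range.

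In the HFD + RSV group the mean CPM of each of the 3 tested linc-Myh transcripts lay between those of the control and HFD groups, although for NONMMUT010284.2 mouse 2 was above all HFD mice (238 CPM against 179 to 206 CPM). The summed locus had 211, 417, 220, and 373 CPM in the HFD + RSV mice, with 2 mice near the HFD range and 2 well below it. The difference from the HFD group was -0.46 on the log2 scale (SE 0.34, adjusted P = 0.936, edgeR), and the exact permutation P was 0.0857. The locus was above all control mice in all 4 HFD + RSV mice, with a log2FC of 1.36 against the control group (SE 0.34, adjusted P = 0.161, edgeR). NONMMUT085366.1 had 138, 295, 177, and 239 counts in the HFD + RSV mice, and its CPM did not overlap those of the HFD group (log2FC -0.76, SE 0.32, adjusted P = 0.741, edgeR).

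In the HFD + metformin group the mice differed widely. The locus had 193, 277, 96.4, and 391 CPM, so mouse 3 was at the level of the control group and mouse 4 at that of the HFD group. The log2FC against the HFD group was -0.82 (SE 0.34, adjusted P = 0.685, edgeR), and the exact permutation P was 0.0571. Both drug comparisons share the HFD mice with the comparison of HFD against control, so the opposite sign of the changes is not independent of it.

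The myosin gene with the most counts, Myh4, had a positive log2FC in the HFD group that did not pass the test. Its level was 54140, 27330, 28840, and 29210 CPM in the control mice and 51670 to 58960 CPM in the HFD mice, where control mouse 1 lay inside the HFD range. The log2FC was 0.67 (SE 0.25, adjusted P = 0.127, edgeR), and without control mouse 1 it was 0.96 (adjusted P = 0.0301, edgeR). The linc-Myh locus was therefore also set against Myh4 in the same mouse, which removes library size. It had 0.452, 0.579, 0.523, and 0.586 counts per 1000 Myh4 counts in the control mice and 1.07, 1.01, 1.06, and 1.18 in the HFD mice. The groups did not overlap, the ratio of their geometric means was 2.03, and control mouse 1 was lowest. The exact permutation P was 0.0286. In the HFD + RSV group the values were 0.692, 1.24, 0.605, and 1.11, above all control mice (exact permutation P = 0.0286) and overlapping the HFD group (exact permutation P = 0.4). In the HFD + metformin group they were 0.498, 0.894, 0.562, and 0.94, below all HFD mice (exact permutation P = 0.0286). These ratios were chosen after seeing the data, over 4 ratios and 5 comparisons each, and the P-values are not adjusted.

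**Figure D2:**
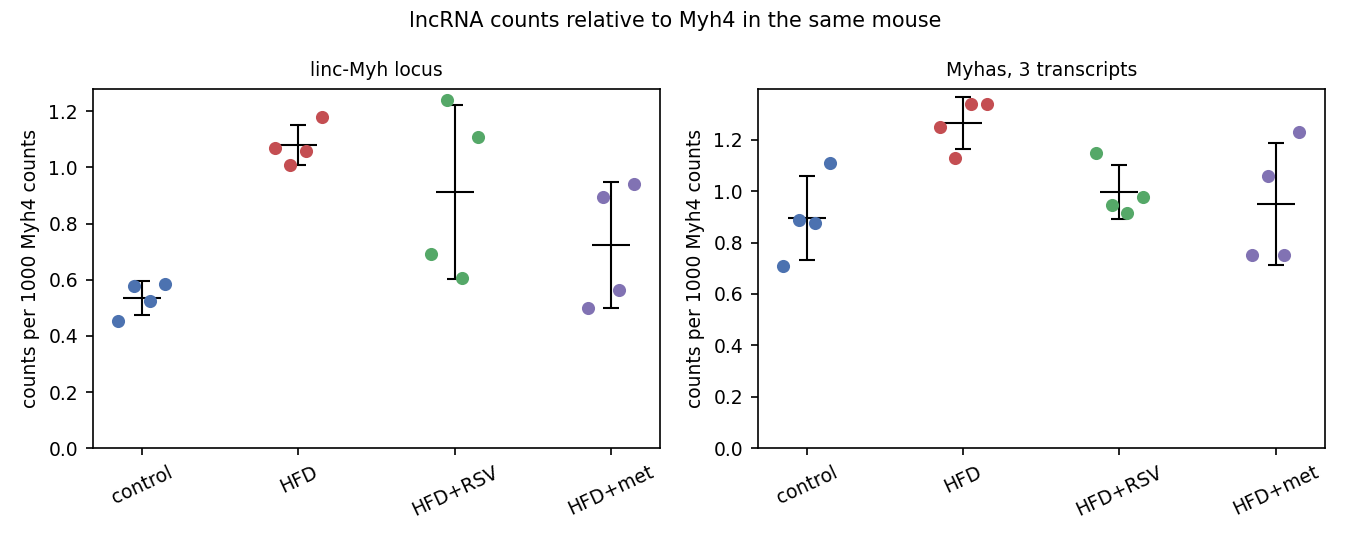
Counts of the summed linc-Myh locus (left) and of the 3 summed Myhas transcripts (right) per 1000 Myh4 counts of the same mouse (y axis) by group (x axis), with points for mice and bars for the mean and SD of 4. The HFD mice lie above the control mice in both panels, at 1.01 to 1.18 against 0.452 to 0.586 for linc-Myh and at 1.13 to 1.34 against 0.71 to 1.11 for Myhas.

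Myhas has 2 transcripts among the members and another, ENSMUST00000149070, in the mRNA table. Each was at higher levels in all HFD mice than in all control mice, and only ENSMUST00000149070 passed the test. The share of all transcripts without overlap between these groups was not counted. ENSMUST00000145021 (chr11:67211256-67237573, minus strand, 4 exons) had 131, 249, 132, and 222 counts in the control mice and 272, 318, 325, and 271 in the HFD mice, or 34.1 to 76.6 and 80.8 to 97.6 CPM. The groups did not overlap, but the log2FC of 0.80 (SE 0.29) had an adjusted P of 0.173 (edgeR). ENSMUST00000137662 (chr11:67223879-67228742, minus strand, 3 exons) had 67, 39, 53, and 39 counts in the control mice and 101, 184, 232, and 87 in the HFD mice. The log2FC was 1.63 (SE 0.51, adjusted P = 0.113, edgeR), which meets the study's criteria (P under 0.05 and absolute log2FC above 1, applied here to the unadjusted P, while the methods also speak of false discovery rate control) but not the adjusted threshold.

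ENSMUST00000149070 had 486, 465, 461, and 363 counts in the control mice and 1337, 990, 1130, and 1150 in the HFD mice, with a log2FC of 1.35 (SE 0.34, adjusted P = 0.0499, edgeR over 15364 genes). Leaving out 1 mouse at a time kept this log2FC within 1.24 to 1.55. The adjusted P was 0.0816 to 0.143 without control mouse 2, 3, or 4 or any HFD mouse, and 0.0346 without control mouse 1. The 3 transcripts summed, an alternative added after seeing the data, had 24.2 to 38.4 CPM in the control group and 62 to 74.6 CPM in the HFD group, with a log2FC of 1.22 (SE 0.27, adjusted P = 0.0397, edgeR).

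The HFD + RSV mice held an intermediate and narrow range of Myhas, 47.7 to 51.8 CPM for the 3 transcripts. This range was below all HFD mice and above all control mice (exact permutation P = 0.0286 for each), while the adjusted P was 0.999 against the HFD group and 0.239 against the control group (edgeR). The HFD + metformin mice had 41.3, 48.5, 21.4, and 76.9 CPM, with mouse 3 lowest and mouse 4 highest, the same mice as for linc-Myh. Per 1000 Myh4 counts, Myhas had 0.71, 0.886, 0.876, and 1.11 in the control mice and 1.25, 1.13, 1.34, and 1.34 in the HFD mice, without overlap (exact permutation P = 0.0286). The HFD + RSV mice had 1.15, 0.946, 0.913, and 0.976, and the HFD + metformin mice 0.753, 1.06, 0.752, and 1.23. Both drug groups overlapped the HFD group (exact permutation P = 0.0571 for each) and the control group (exact permutation P = 0.314 with RSV and 0.771 with metformin).

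Parts of the Myhas members lie opposite to exons of Myh1, namely 256 bases or 26.9% of the length of ENSMUST00000145021 and 238 bases or 30.2% of ENSMUST00000137662. The library kit named in the labels does not mark strand, so fragments of these bases cannot be told from Myh1. ENSMUST00000149070 (chr11:67224196-67237281) also reaches into Myh1, which ends at 67224575. Its bases shared with Myh1 exons were not counted, so the same limit may hold for it and for the summed Myhas transcripts. Myh1 itself had 3315 to 10210 CPM in the control mice and 3502 to 7032 CPM in the HFD mice, with a log2FC of -0.33 (SE 0.49, adjusted P = 0.711, edgeR). The sign of Myh1 was opposite to that of Myhas, but without control mouse 4 the log2FC of Myh1 was 0.02.

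**Figure D3:**
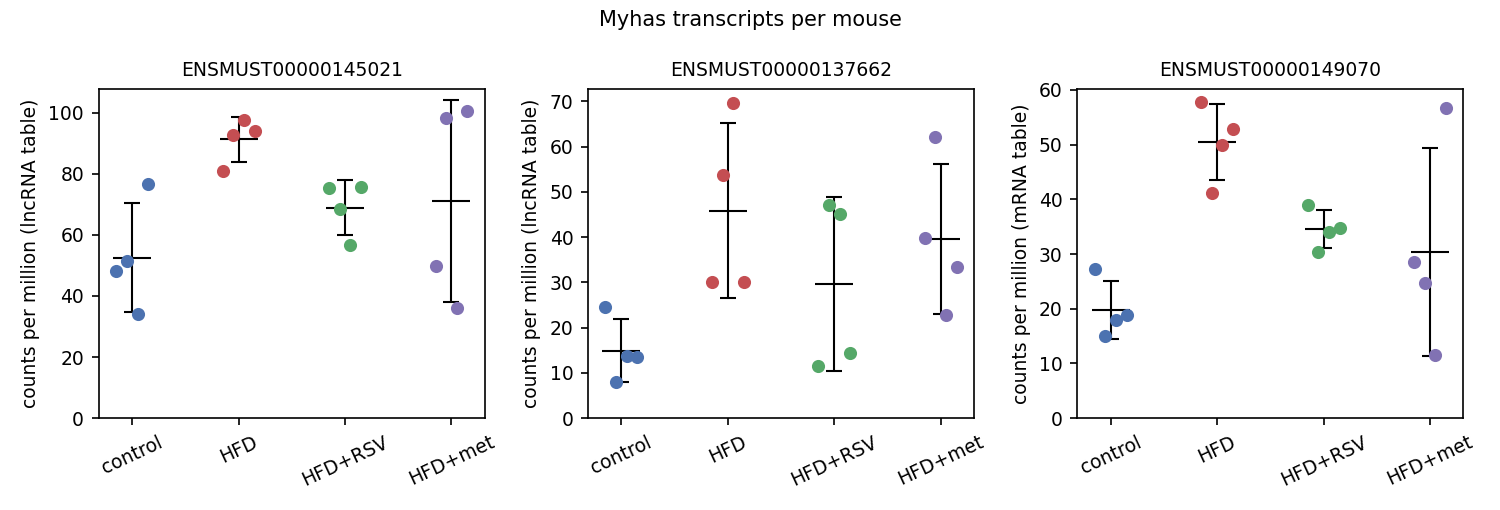
CPM of the 2 Myhas members (left and middle, scaled to the lncRNA table) and of ENSMUST00000149070 (right, scaled to the mRNA table) on the y axis by group on the x axis, with 1 point per mouse and the mean and SD of 4 mice as bars. In each panel the HFD points lie above the control points, and the HFD + RSV points of the right panel are tightly grouped.

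On chromosome 14, the 3 transcripts inside Myh7 with enough counts were lower in the HFD group, but with large variation between mice, and none passed the adjusted threshold. NONMMUT020952.2 (chr14:54971909-54972687, 1 exon in an intron of Myh7) had 0, 32, 10, and 23 counts in the control mice and 1, 0, 0, and 1 in the HFD mice. The control mice other than mouse 1 were above all HFD mice. The log2FC was -4.51 (SE 1.28, adjusted P = 0.085, edgeR), and without control mouse 1 it was -4.91 (adjusted P = 0.0389, edgeR). Per fragment of the table, the control group was 29.5 times the HFD group (95% counting interval 7.84 to 249).

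NONMMUT020954.2 (chr14:54978848-54979619) had 0, 69, 30, and 30 counts in the control mice and 3, 2, 4, and 0 in the HFD mice (log2FC -3.52, SE 1.23, adjusted P = 0.151, and without control mouse 1 -3.91, adjusted P = 0.0806, edgeR). NONMMUT020956.2 (chr14:54981174-54982013) has 1 exon, all of whose bases lie in exons of annotated Myh7 transcripts. It had 0, 35, 17, and 26 counts in the control mice, and 3 counts in HFD mouse 1 with 0 in the other HFD mice. The log2FC was -4.30 (SE 1.36, adjusted P = 0.116, edgeR), and without control mouse 1 it was -4.69 (adjusted P = 0.0637, edgeR). Control mouse 1 again had no count of NONMMUT020954.2 or NONMMUT020956.2. All 3 transcripts met the study's criteria in this comparison, whose share over all tested lncRNAs was 2.93% in the lower direction.

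Myh7 itself was low in the same control mouse. Myh7 had 50, 28491, 11681, and 10051 counts in the control mice and 403, 159, 1344, and 59 in the HFD mice, with a log2FC of -4.46 (SE 1.45, adjusted P = 0.0941, edgeR). Without control mouse 1 the log2FC was -4.87 (adjusted P = 0.0417, edgeR). The HFD + RSV mice had 158, 4358, 887, and 11886 Myh7 counts, and the 3 lncRNAs were at 0 in mouse 1 and highest in mouse 4, with 12, 41, and 20 counts. The HFD + metformin mice had 1288, 3691, 1400, and 1058 Myh7 counts, and mouse 2 was highest in each of the 3 lncRNAs, with 12, 13, and 7 counts.

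Across the 16 mice, the log2 CPM of the 3 lncRNAs followed that of Myh7. For NONMMUT020954.2, Pearson's r was 0.948 and Spearman's rho 0.941, each with the smallest P that 100000 permutations can give, 1e-05 (adjusted over 72 pairs, 0.00024 and 0.00036). After the group means were subtracted, r was 0.958 (permutation P = 4e-05, adjusted 0.00288) and rho 0.947 (permutation P = 6e-05, adjusted 0.00432). For NONMMUT020952.2, r was 0.887 and rho 0.871 over 16 mice (adjusted permutation P = 0.00024 and 0.00048), and 0.848 and 0.768 within groups (adjusted permutation P = 0.105 and 0.186). For NONMMUT020956.2, r was 0.9 and rho 0.905 over 16 mice (adjusted permutation P = 0.00024 and 0.00036), and 0.886 and 0.85 within groups (adjusted permutation P = 0.105 and 0.0756). Without the 2 mice farthest from the median of Myh7, r was 0.919, 0.943, and 0.909 over the remaining mice for NONMMUT020952.2, NONMMUT020954.2, and NONMMUT020956.2. Within groups, leaving out the 2 mice farthest from the median gave r of 0.604, 0.9, and 0.733. Without control mouse 1, an alternative added after seeing the data, r was 0.878, 0.945, and 0.9 over 15 mice (adjusted permutation P = 0.00048, 0.00036, and 0.00036) and 0.674, 0.919, and 0.77 within groups (adjusted permutation P = 0.688, 0.0259, and 0.688). In the 10 mice with at least 1000 Myh7 counts, the 3 lncRNAs together had 2.98 to 8.67 counts per 1000 Myh7 counts (median 6.18), while Myh7 itself ranged 570-fold over all mice. In the 6 other mice they had 7 counts or fewer. These transcripts lie inside Myh7 on an unstated strand, so reads of Myh7 pre-mRNA or mRNA and reads of separate RNAs cannot be told apart here.

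**Figure D4:**
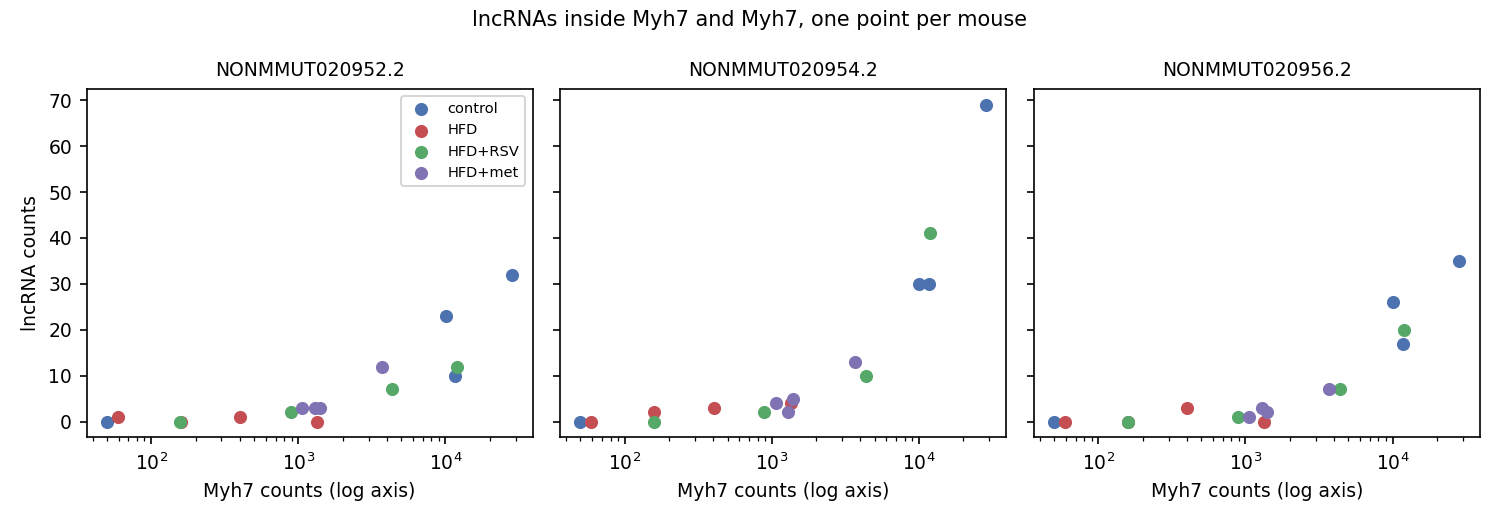
Counts of 3 lncRNAs inside Myh7 (y axis) against Myh7 counts (x axis, log scale), 1 point per mouse and 1 color per group. The lncRNA counts are at most 1, 4, and 3 in the HFD mice and reach 32, 69, and 35 in control mouse 2, which has 28491 Myh7 counts.

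The fourth tested transcript of chromosome 14, NONMMUT020960.2 (chr14:55015573-55016771), lies 20947 bases from Myh7 and shares 76 bases with exons of Ngdn. It had 14, 17, 25, and 17 counts in the control mice and 11, 15, 11, and 5 in the HFD mice (log2FC -0.70, SE 0.31, adjusted P = 0.248, edgeR). Its r with Myh7 was 0.279 (adjusted permutation P = 0.429), with a rho of 0.165 (adjusted permutation P = 0.695), and without control mouse 1 r was 0.436 (adjusted permutation P = 0.19). Ngdn had a log2FC of -0.05 (SE 0.10).

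Of the 14 members that were not tested, NONMMUT020942.2, which spans Myh6 and runs into Myh7, had the highest mean FPKM of those on chromosome 14. It had 1, 0, 16, and 10 counts in the control mice, 1, 0, 2, and 0 in the HFD mice, 0, 6, 3, and 17 in the HFD + RSV mice, and 2, 5, 4, and 0 in the HFD + metformin mice. NONMMUT143149.1, inside Myh7, had 0, 8, 10, and 9 counts in the control mice, 1 count in the HFD mice, 13 counts in HFD + RSV mouse 4, and none elsewhere. The members upstream of Myh7, NONMMUT020958.2, NONMMUT092968.1, and NONMMUT092969.1, had 0 counts in all HFD mice and at most 5 in any mouse. Between linc-Myh and Myh2, NONMMUT083845.1 had 0, 0, 2, and 2 counts in the control mice and 6, 3, 6, and 4 in the HFD mice. Its CPM did not overlap (exact permutation P = 0.0286), and the control to HFD ratio was 0.191 (95% counting interval 0.0473 to 0.575). How many of all transcripts also reached this P was not counted, and this row had too few counts for the edgeR test. NONMMUT083846.1 had at most 4 counts in any mouse. In total, 11 members had no more than 10 counts in any mouse, so differences in them were mostly not detectable at this depth.

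Mhrt, the antisense RNA at Myh7, is in the mRNA table and was also low. It had 0, 37, 8, and 6 counts in the control mice, 0 in all HFD mice, 0, 2, 2, and 3 in the HFD + RSV mice, and 0, 3, 0, and 0 in the HFD + metformin mice. Set against the limit of 3 counts over the HFD group, the control group was at least 16.6-fold higher, for counting error only, and 37 of its 51 counts came from control mouse 2. Mhrt (chr14:54968787-54974349) runs into Myh7, and the kit does not mark strand. Reads of Mhrt and of Myh7 therefore cannot be told apart where they overlap.

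Over the 9 tested members, the windows differed in direction. On chromosome 11, 5 of 5 were higher in the HFD group (median log2FC 1.63), and on chromosome 14, 4 of 4 were lower (median -3.91), while the median over all lncRNAs was -0.00. The 3 tested members inside Myh7 had at most 4 counts in any HFD mouse, so they passed the filter on low counts through mice of other groups. Their lower direction is thus not independent of the filter, and rows of 1 locus share fragments. By the study's criteria, 4 members were higher and 3 lower, compared with 5.94% of all tested lncRNAs in either direction, 3.01% higher and 2.93% lower. In the test of any difference among the 4 groups, 0 of 9 passed at an adjusted P below 0.05 (edgeR), compared with 0.0795% of all lncRNAs, and DESeq2 called 3, compared with 2.41% of all lncRNAs. In HFD against control DESeq2 called 5, compared with 3.86%. At an unadjusted P under 0.05, 7 of 9 differed, compared with 12.2% of all lncRNAs. NONMMUT085366.1 was nearest, with an adjusted P of 0.0613 (edgeR).

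In the drug groups, 0 of 9 members passed against the HFD group with RSV (0.0114% of all lncRNAs) or with metformin (0% of all lncRNAs), by edgeR as well as by DESeq2 (0.262% and 0.2% of all lncRNAs). At an unadjusted P below 0.05, 2 members differed with RSV and 2 with metformin, against 6.29% and 6.95% of all lncRNAs. All 5 members of chromosome 11 were lower than in the HFD group in both drug groups, with log2FC from -0.76 to -0.27 with RSV, and with metformin from -0.22 down to a 2-fold lower level of NONMMUT085366.1. All 4 members of chromosome 14 were higher, from 0.17 to 3.08 and from 0.24 to 2.94. Since the drug comparisons share the HFD mice, these directions are not independent of the HFD comparison. For the members inside Myh7 they are also not independent of the filter on low counts. By the study's criteria, 1 member was called with RSV (1.93% of all lncRNAs) and 0 with metformin (2.38%). It was NONMMUT020952.2 (log2FC 3.08, SE 1.37, adjusted P = 0.761, edgeR), with 0, 7, 2, and 12 counts in the HFD + RSV mice.

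Against the control group, 0 of 9 members passed with RSV (0.0114% of all lncRNAs) or with metformin (0%) by edgeR, while DESeq2 called 2 and 1 (1.16% and 1.01% of all lncRNAs). At an unadjusted P under 0.05, 3 differed with RSV and 6 with metformin, compared with 10.9% and 9.98% of all lncRNAs. By the study's criteria, 3 were called with RSV, the linc-Myh transcripts (3.37% of all lncRNAs). With metformin, 5 were called, of which 3 were higher (NONMMUT010284.2, NONMMUT085366.1, and ENSMUST00000137662) and 2 lower (NONMMUT020954.2 and NONMMUT020956.2), compared with 2.86% of all lncRNAs.

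None of the 8 myosin genes passed the adjusted threshold in HFD against control, while 2.43% of all genes did (edgeR), and DESeq2 called Myh7 and Myh4, compared with 10.5% of all genes. At an unadjusted P under 0.05, 5 of the 8 differed, compared with 24.2% of all genes. By the study's criteria, Myh3, Myh6, and Myh7 were called, compared with 4.94% of all genes. In the test over 4 groups and the comparisons of RSV with HFD, metformin with HFD, RSV with control, and metformin with control, 0 passed, with 0.117%, 0%, 0.013%, 0.00651%, and 0% of all genes (edgeR). DESeq2 also called 0 in these 4 comparisons, with 0.0521%, 0.219%, 2.67%, and 0.918% of all genes. At an unadjusted P under 0.05, 1, 1, 0, 1, and 2 of 8 differed in the order of the 5 tests, compared with 15.4%, 4.72%, 8.02%, 15.8%, and 9.5% of all genes (edgeR). The fast gene Myh4 and the neonatal gene Myh8 had positive log2FC of 0.67 and 0.63 (SE 0.25 and 0.24). Myh8 was 0.94 without control mouse 1 (adjusted P = 0.0273, edgeR). Myh2 (-1.49, SE 0.73), Myh3 (-1.90, SE 0.76), and Myh6 (-2.14, SE 0.89) had negative log2FC with adjusted P of 0.228, 0.148, and 0.163 (edgeR). Myh13, at 0.399 to 12.3 CPM, differed little (log2FC -0.30, SE 0.75). The linc-Myh transcripts thus had log2FC of the opposite sign to the nearest myosin gene, Myh3, and of the same sign as Myh4 and Myh8.

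**Figure D5:**
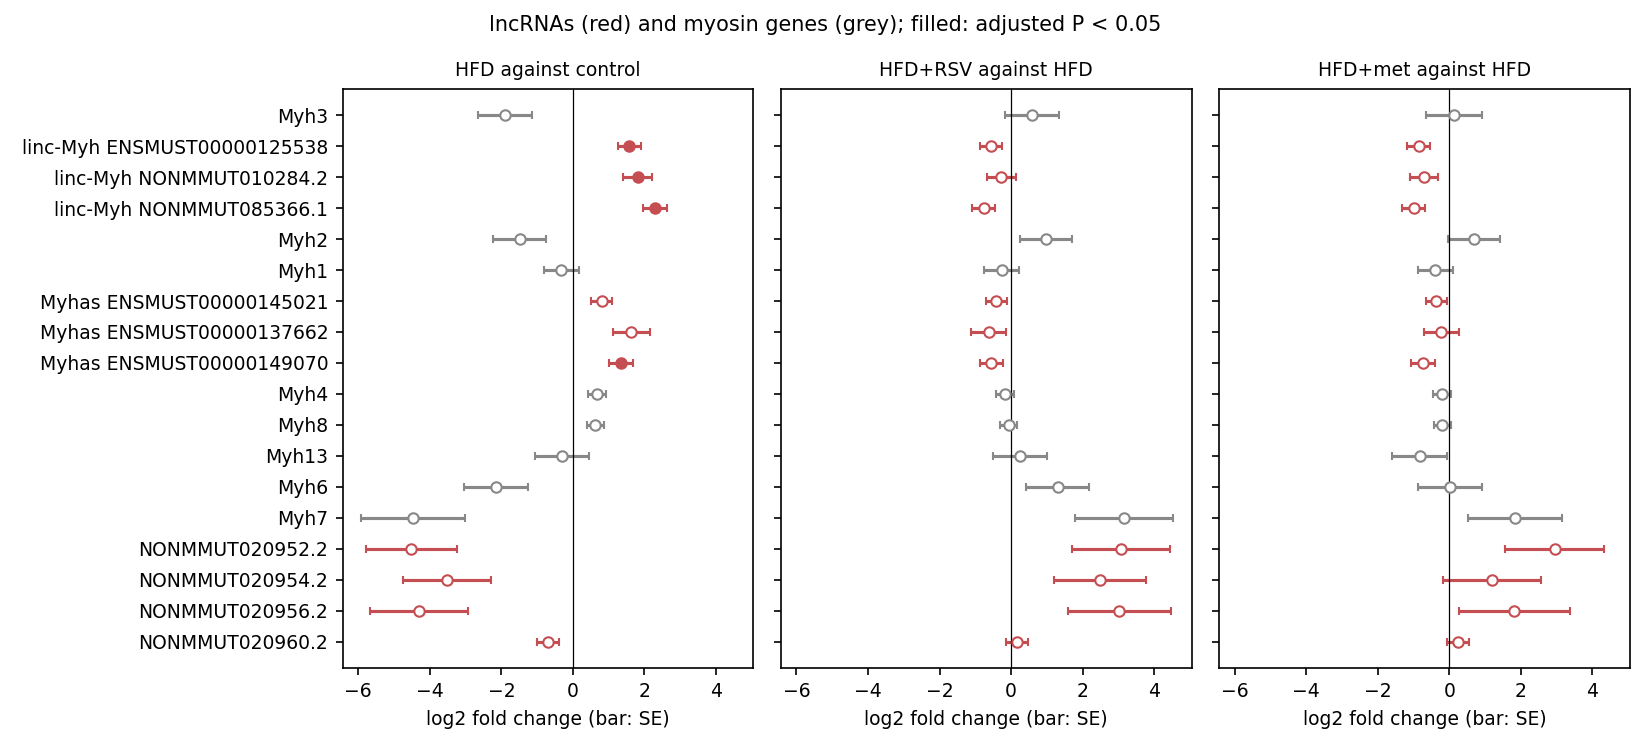
The log2 fold change (x axis, with SE as bars) of the tested lncRNAs (red) and the myosin genes (grey), in the order of the genome from top to bottom, for 3 comparisons. Filled symbols, those with an adjusted P below 0.05, are the 3 linc-Myh transcripts and ENSMUST00000149070 in HFD against control.

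The levels of the linc-Myh transcripts went with those of Myh4 and Myh8 across the 16 mice. For NONMMUT085366.1, r with Myh4 was 0.789 (permutation P = 0.0004, adjusted 0.0032) and rho was 0.762 (permutation P = 0.001, adjusted 0.0144), and r was 0.704 without the 2 mice farthest from the median of Myh4. For ENSMUST00000125538, r was 0.836 and rho 0.724 (adjusted permutation P = 0.00134 and 0.0191), and r was 0.714 without the 2 farthest mice. For NONMMUT010284.2, r was 0.842 and rho 0.653 (adjusted permutation P = 0.00132 and 0.0526), and r was 0.778 without the 2 farthest mice. Since the groups differ in both measures, r was also computed after the group means were subtracted, where it was 0.593 to 0.725 (adjusted permutation P = 0.218 to 0.247), with rho of 0.332 to 0.547 (adjusted permutation P = 0.415 to 0.501). The relation therefore did not pass within groups. With Myh8, r was 0.84, 0.854, and 0.791 for ENSMUST00000125538, NONMMUT010284.2, and NONMMUT085366.1 (adjusted permutation P = 0.00132, 0.00132, and 0.00315). Within groups, r with Myh8 was 0.756, 0.732, and 0.647 (adjusted permutation P = 0.218 for each). Without control mouse 1, r with Myh4 over 15 mice was 0.868 for ENSMUST00000125538, 0.888 for NONMMUT010284.2, and 0.895 for NONMMUT085366.1 (adjusted permutation P = 0.00136, 0.00081, and 0.00081). Within groups it was then 0.693, 0.708, and 0.733 (adjusted permutation P = 0.75, 0.688, and 0.688). With Myh3, the nearest gene, NONMMUT085366.1 had r of -0.543 and rho of -0.541 (adjusted permutation P = 0.0738 and 0.114). The Myhas member ENSMUST00000145021 had r of 0.357 and rho of 0.26 with Myh1 (adjusted permutation P = 0.301 and 0.502), and r of 0.588 and rho of 0.518 with Myh4 (adjusted permutation P = 0.0511 and 0.125). Without control mouse 1 its r with Myh4 was 0.658 (adjusted permutation P = 0.0397). The other Myhas member, ENSMUST00000137662, had r of -0.317 and rho of -0.331 with Myh1 (adjusted permutation P = 0.35 and 0.36), and r of 0.675 and rho of 0.635 with Myh4 (adjusted permutation P = 0.0258 and 0.0568). Its r with Myh4 was 0.61 without the 2 farthest mice and 0.489 within groups (adjusted permutation P = 0.247), and without control mouse 1 it was 0.691 (adjusted permutation P = 0.028). Of the 72 pairs of a member and a myosin gene, 22 passed over all mice by r and 1, NONMMUT020954.2 with Myh7, passed within groups by r. By rho within groups, NONMMUT020954.2 with Myh6 also passed (rho 0.8, adjusted permutation P = 0.0191). Over 16 mice, r with Myh6 was 0.615 for NONMMUT020952.2, 0.774 for NONMMUT020954.2, and 0.711 for NONMMUT020956.2 (adjusted permutation P = 0.0406, 0.00432, and 0.0152).

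Genes of the contractile apparatus and their regulators were counted from lists chosen for fibre type. Of 12 slow fibre genes, 0 passed in HFD against control (edgeR), with a median log2FC of -2.20 and 9 lower at an unadjusted P below 0.05, compared with 12.5% of all genes. Of these, Tpm3 (log2FC -1.78, SE 0.47) and Atp2a2 (-2.01, SE 0.58) had adjusted P of 0.0584 and 0.0715 (edgeR). Of 11 fast fibre genes, 0 passed, with a median of 0.52 and 7 higher at an unadjusted P below 0.05, compared with 11.7% of all genes, and Tnnc2, the fast troponin C, had a log2FC of 0.71 (SE 0.19, adjusted P = 0.0609, edgeR). The median over all genes was -0.02. Without control mouse 1, an alternative added after seeing the data, 6 slow fibre genes were lower and 6 fast fibre genes higher at an adjusted P below 0.05 (edgeR), while 4.95% of all genes passed in either direction, and the medians were -2.56 and 0.71.

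Of 21 regulators of fibre type genes, 1 was higher and 0 were lower at an adjusted P below 0.05, while 1.32% of all genes were higher. Mef2c, a transcription factor of muscle genes, had 2423, 5584, 2099, and 3477 counts in the control mice and 9726, 12645, 12238, and 7406 in the HFD mice, with a log2FC of 1.66 (SE 0.27, adjusted P = 0.0149, edgeR). At an unadjusted P below 0.05, 7 regulators were higher and 1 was lower, compared with 11.7% and 12.5% of all genes. Hdac4 had a log2FC of 0.69 (SE 0.18, adjusted P = 0.0542, edgeR). Eya1, a transcriptional cofactor of muscle, had a log2FC of 0.60 (SE 0.17, adjusted P = 0.0673, edgeR). The lower regulator was Prox1 (log2FC -0.93, SE 0.35, adjusted P = 0.131, edgeR). Of 9 tested coding genes in or near the windows, 0 passed, and the median log2FC was -0.08. At an unadjusted P below 0.05, 1 was lower, compared with 12.5% of all genes. It was Tmem220 (log2FC -1.37, SE 0.40, adjusted P = 0.0702, edgeR).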

How the data were processed

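Skeletal muscle of 16 mice, 4 in each of 4 groups taken from the sample labels, gave paired-end libraries after rRNA removal. The TruSeq RNA kit named in the labels does not mark strand, and whether counting used strand is not given in the sources used here. The submitters' processing notes name fastp, HISAT2, and GRCm38, and the study's methods name StringTie. The authors deposited expected counts per transcript in a lncRNA table and an mRNA table, without normalization. StringTie divides fragments among overlapping transcripts, so rows of 1 locus are not independent. They also deposited FPKM values, which were used only to rank members. Coordinates equal GENCODE M21 for 99.07% of the lncRNA rows that it holds.

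The counts were rounded to whole numbers, as deposited, and mRNA counts were summed per gene name. edgeR 4.0.16 in R 4.3.3 was used with filterByExpr (minimum count 10, minimum total 15), TMM within each table, and a robust quasi-likelihood fit to all 16 mice, with Benjamini-Hochberg adjustment over the table. P-values measure the spread between mice. CPM were scaled to the effective library size of the table a row is in. Exact permutation tests were two-sided on log2 CPM (prior count 2) or log2 ratios, and were not run over all transcripts. Correlations used 100000 permutations. Intervals (95%, exact) and lower bounds (3 counts over a group) cover counting error only. The members, lists, and tests were chosen with earlier results of these data known. Named in full were members called or meeting the study's criteria in a comparison with HFD, the 5 per window with the highest mean FPKM, and the 8 myosin genes. The scripts were checked on simulated data. Alternatives were DESeq2 1.42.0, other scalings and filters, fewer mice, and the study's criteria, read here as cut-offs on the unadjusted P. Fits with 1 mouse left out kept all 4 groups, and a separate fit held only the 2 groups compared. Summed locus rows, and lists and correlations without control mouse 1, were added after seeing the data. Promoters came from RefSeq (GRCm38.p6).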

Additional observations from a re-analysis of the deposited data

Results flagged for a closer look

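Of 72 sets of 4 mice (1 transcript or gene in 1 group), 6 held a mouse whose log2 CPM lay far from the other 3, by Dixon's test of the gap over the range of the set. Chance gives about 1 in 20 such sets. Control mouse 1 was far above the other control mice in Myh4 (gap 0.908 of the range, log2 CPM 15.72 against 14.83) and in Myh8 (0.912, 7.03 against 6.11), and far below them in Myh7 (0.879, 1.53 against 8.84). Myh3 was low in HFD mouse 4 (0.838, -0.46 against 1.00). NONMMUT020956.2 was counted, among the HFD mice, in mouse 1 alone (1.000, with 3 counts against 0 in the other HFD mice). NONMMUT020960.2 was low in HFD + metformin mouse 2 (0.914, 1.38 against 2.28).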

How the results depend on the processing

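No paired analysis was possible because the labels give no replicate number that marks matched mice across the groups. The 3 members called in HFD against control became 1 without a filter on low counts, 5 with DESeq2, and 7 by the study's criteria, and ranged from 0 (without control mouse 2) to 4 when 1 mouse of the 2 groups was left out. With TMM over both tables they were 2, since the adjusted P of NONMMUT010284.2 was 0.0515, and that of ENSMUST00000149070 was 0.0508 (edgeR). Members called for any difference among the 4 groups were 0 and became 3 with DESeq2, and ranged from 0 to 2 when 1 mouse was left out. By the study's criteria, 1 member was called in HFD + RSV against HFD, 3 in HFD + RSV against control, and 5 in HFD + metformin against control, where none was called before. HFD + RSV against control also gave 2 with DESeq2 and 1 in the 12 mice without the metformin group, and HFD + metformin against control gave 1 with DESeq2 and 0 to 1 when 1 mouse was left out. Myosin genes called in HFD against control were 0 and became 2 with DESeq2 and 3 by the study's criteria, and ranged from 0 to 3 (without control mouse 1) when 1 mouse was left out. The study's criteria called 1 in HFD + RSV against HFD and 2 in HFD + metformin against control. The cause of these changes was not tested.

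Small log2FC turned direction. When 1 mouse was left out, the log2FC in HFD + metformin against HFD ranged from -0.53 to 0.06 for ENSMUST00000137662, from -0.50 to 0.48 for Myh3 (also -0.14 and -0.08), and from -0.80 to 0.33 for Myh6 (also -0.31 and -0.01). In HFD + RSV against HFD it ranged from -0.01 to 0.36 for NONMMUT020960.2 and from -0.39 to 0.64 for Myh13, and in HFD against control from -0.56 to 0.02 for Myh1 and from -0.67 to 0.12 for Myh13. Myh6 in HFD + metformin against HFD was -0.01 with TMM over both tables. In the transcript with the highest count, Myh6 was -0.00 and Myh3 -0.40 in HFD + metformin against HFD, and Myh13 was 0.52 in HFD against control and -0.01 in HFD + RSV against HFD. Without a filter on low counts, the adjusted P in HFD against control was 0.0573 for ENSMUST00000125538, 0.142 for NONMMUT010284.2, and 0.0686 for ENSMUST00000149070 (edgeR). No other named log2FC turned direction in the comparisons of HFD with control and of each drug group with HFD. Depth limits the chromosome 14 members, most of which had few counts in any mouse.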
